A study of Mus musculus with 6 samples.

Results

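The transcripts of Avp, Ptprn and 8 further genes of the dense-core granule were followed through 6 single olfactory sensory neurons. These are 10 of the 55341 genes in the count table: Avp, Ptprn, Ptprn2, Chga, Chgb, Scg2, Scg3, Scg5, Pcsk1n and Cpe. They were chosen by name, with their measured counts in these cells known, to ask whether the counts of Avp and Ptprn go with those of granule proteins and of the enzymes that process prohormones. The levels below are therefore descriptions without a test. The neurons came from the olfactory epithelium of wild-type C57BL/6 mice aged 6 weeks, were frozen singly after a physiological recording, and each became its own CEL-Seq2 library. All cells form 1 group, here numbered 1 to 6, and the number of mice is not stated, so differences between cells have no replicate check.

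Neurons store peptide hormones in dense-core granules, which bud from the trans-Golgi network and release their content when calcium enters the cell. Acidic proteins called granins help to pack the content, prohormone convertases cut the precursors at pairs of basic residues, carboxypeptidase E trims the ends, and receptor-like membrane proteins such as the product of Ptprn sit in the granule membrane. Avp encodes the precursor of vasopressin, a peptide best known from neurons of the hypothalamus that release it into the blood. Olfactory sensory neurons are known above all for fast glutamate release from small clear vesicles in the olfactory bulb.

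Cell totals ran from 8613 counts in cell 1 to 122546 in cell 3, and cell 3 held 47.0% of all 260789 counts. A single count was worth 116, 29.0, 8.16, 16.4, 44.4 and 85.3 CPM (counts scaled to the total of the cell) in cells 1 to 6. For a gene without a count, bounds of ratios were set at 3 counts, which are 348, 87.0, 24.5, 49.3, 133 and 256 CPM in the 6 cells. Whether reads of the same molecule were collapsed is not given in the sources used here, so a count may be a molecule or a read, and all intervals cover counting error only. Markers of mature olfactory neurons, with 9 of 9 genes found, summed to between 19845 and 32393 CPM, with 32298 CPM in cell 3. Cnga2, the cyclic nucleotide-gated channel subunit, was the member of that list without a count in cell 6.

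Several granin promoters are known for a cyclic AMP response element. The bases just upstream of the start sites are therefore shown for Avp, Ptprn and the granins Chga, Chgb and Scg2. These granins had 61.3%, 76.2% and 100% of their counts in cell 3. Pcsk1n, with 77.8% of its 9 counts there, is not shown. Windows of 300 bases around the RefSeq starts (build GRCm38.p6, 250 bases before and 50 after) were found for 9 of the 10 members, Cpe being the exception. They were searched on both strands for 5 motifs. They were the full cyclic AMP response element TGACGTCA, its core TGACG, which lies within the full element, the E-box CACGTG, the TATA box letters TATAAA, and the EBF core letters CCCNNGGG. Each line gives the 150 bases before the start, with every match within them in capitals (for Ptprn the more upstream of its 2 RefSeq starts).
Avp, chr2:130582589-130582738, minus strand: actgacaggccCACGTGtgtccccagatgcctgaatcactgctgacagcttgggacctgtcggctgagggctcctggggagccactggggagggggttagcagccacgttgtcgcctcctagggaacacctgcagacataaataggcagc
Ptprn, chr1:75264209-75264358, minus strand: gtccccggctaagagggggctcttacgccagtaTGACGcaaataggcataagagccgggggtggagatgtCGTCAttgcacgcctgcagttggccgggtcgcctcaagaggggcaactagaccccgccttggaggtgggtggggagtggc
Chga, chr12:102554791-102554940, plus strand: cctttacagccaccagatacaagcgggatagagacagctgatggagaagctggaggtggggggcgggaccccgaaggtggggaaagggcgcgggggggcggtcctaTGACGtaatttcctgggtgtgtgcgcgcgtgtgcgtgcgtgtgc
Chgb, chr2:132781492-132781641, plus strand: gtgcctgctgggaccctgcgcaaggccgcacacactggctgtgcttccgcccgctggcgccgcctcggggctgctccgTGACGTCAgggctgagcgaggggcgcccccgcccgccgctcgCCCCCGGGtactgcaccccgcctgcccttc
Scg2, chr1:79440027-79440176, minus strand: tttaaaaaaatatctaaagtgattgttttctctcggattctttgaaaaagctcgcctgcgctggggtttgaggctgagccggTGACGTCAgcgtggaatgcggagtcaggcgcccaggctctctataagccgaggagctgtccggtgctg
The full element TGACGTCA was in the windows of Chgb and Scg2, starting 72 and 68 bases before the start, and in 1.79% of all 32851 windows. The core TGACG was in 6 of the 10 windows of the members and in 20.8% of all windows. These 6 belonged to Ptprn (the more upstream start), Chga, Chgb, Scg2, Scg3 and Scg5. In Ptprn the core appeared at 117 and, on the other strand, at 80 bases before that start. The window of the other Ptprn start did not hold it. The Avp window held neither form of the element. It held CACGTG, 139 bases before the start, a motif of 7.15% of all windows and of no other member. The match to CCCNNGGG in Chgb overlapped no element, and that motif was also in Scg3 and in 13.7% of all windows. Among the members TATAAA was in the Chga window alone, 5 bases after the start and so outside the printed bases. It was in 13.6% of all windows. Ptprn2 and Pcsk1n had no match to any of the 5 motifs. These matches describe letters and say nothing of binding.

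Avp and Ptprn were counted almost only in cell 3. Avp had 0, 0, 128, 4, 1 and 0 counts in cells 1 to 6, which are 0, 0, 1045, 65.7, 44.4 and 0 CPM. Ptprn, a granule membrane protein with an inactive phosphatase domain that is known as an autoantigen of diabetes, had 0, 1, 127, 0, 2 and 0 counts, or 0, 29.0, 1036, 0, 88.8 and 0 CPM. For either gene the 95% Poisson interval of cell 3 (871 to 1242 CPM for Avp, 864 to 1233 CPM for Ptprn) lay above the intervals of all 5 other cells. Cell 3 held 96.2% of all Avp counts (95% Clopper-Pearson interval 91.4% to 98.8%) and 97.7% of all Ptprn counts (93.4% to 99.5%), against 47.0% of the counts of all genes.

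**Figure D1:**
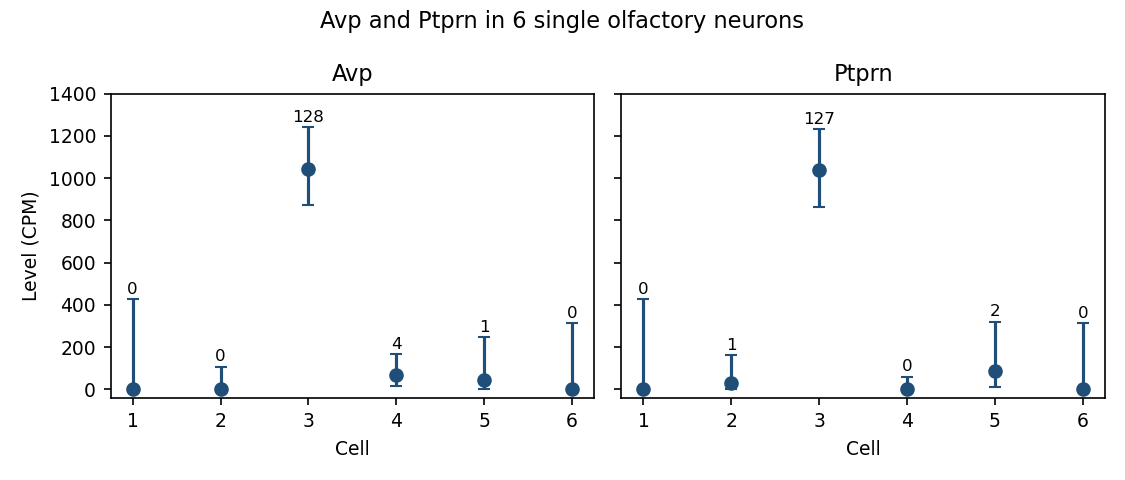
Levels of Avp and Ptprn (CPM, vertical axis) in cells 1 to 6, with 95% Poisson intervals as bars and the count of each cell printed above its bar. Cell 3 stands at 1045 CPM for Avp and 1036 CPM for Ptprn, and the other 5 cells lie at or below 88.8 CPM with wide intervals in the shallow cells 1 and 6.

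At the rate of cell 3, 9.0, 36.0, 63.6, 23.5 and 12.2 counts of Avp were due in cells 1, 2, 4, 5 and 6, where 0, 0, 4, 1 and 0 were found. For Ptprn 8.93, 35.7, 63.1, 23.3 and 12.2 counts were due, and 0, 1, 0, 2 and 0 were found. Avp was 15.9-fold higher in cell 3 than in cell 4 (95% interval 6.06 to 59.3) and at least 12-fold higher than in cell 2, taking 3 counts for a cell without any. Ptprn was at least 21.0-fold higher than in cell 4, and 35.7-fold (6.30 to 1422) higher than in cell 2, which had a single count. Against the shallow cells 1 and 6 the data allow less, with both genes at least 2.98-fold and 4.05-fold higher in cell 3.

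Cells 3 and 4 carried the same leading odorant receptor gene, Olfr741, at 3468 and 3169 CPM. Their Avp and Ptprn levels differed by the amounts given. Whether the receptor goes with these levels was not tested.

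Set against the other 5 cells pooled (138243 counts), Ptprn was 47.8-fold higher in cell 3 (95% interval 16.0 to 235) and Avp 28.9-fold (12.1 to 90.5). They ranked 1 and 2 by this ratio among the 1919 genes whose mean level reached 100 CPM. Of these genes, 1.93% were at least 4-fold higher in cell 3, and 2 of the 10 members were. Since the pattern over cells is what chose Avp and Ptprn, and since they passed the limit of 100 CPM through cell 3 alone, nothing is read from that count. The median gene of the 1919 was at 0.829 of its pooled level in cell 3. Next in the ranking were Olfr1372-ps1, a receptor pseudogene (76 against 4 counts), and Trp53i11 (103 against 6). Within cell 3, Avp and Ptprn were the genes of rank 82 and 84 by count.

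**Figure D2:**
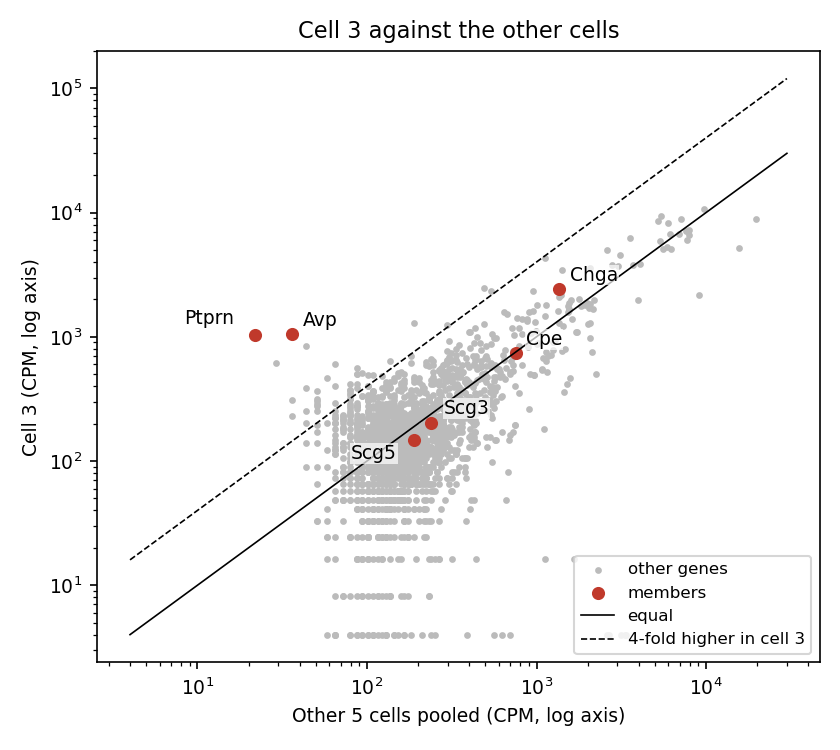
Each point is 1 of the 1919 genes whose mean reached 100 CPM, by its level in the other 5 cells pooled (horizontal) and in cell 3 (vertical), both as CPM on log axes, with a level of 0 drawn at 4 CPM. Ptprn and Avp lie above all other genes relative to the line of a 4-fold difference, and Chga, Cpe, Scg3 and Scg5, the other members with this mean, lie below it.

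Avp lies on chromosome 2 of GRCm38 (130580620 to 130582554, minus strand), with 3 exons in its 1 annotated transcript and no overlapping gene. Its neighbour Oxt, the oxytocin precursor, ends 3565 bases away on the opposite strand (130576173 to 130577054). The genes share 78 of the 528 windows of 50 bases in the Avp transcript (14.8%), so some reads could be exchanged between them. Oxt had 0, 4, 9, 1, 2 and 0 counts in cells 1 to 6, and its ratio of cell 3 to the other cells was 1.45 (0.481 to 4.58). The Oxt interval covers equality between cell 3 and the rest. Of the other genes at the locus, Mrps26, a mitochondrial ribosomal protein, had 0, 5, 3, 7, 2 and 8 counts and Lzts3 had 2 counts in all, while Ubox5 and Fastkd5 had none. Ptprn lies on chromosome 1 (75247027 to 75264502, minus strand), with up to 23 exons, and the antisense gene Gm28294 over its exons had 0 counts in each cell. None of the windows of 50 bases in the last 1000 bases of its transcripts occurred in another gene. Chga (chromosome 12, 102554969 to 102565028, plus strand) and Cpe (chromosome 8, 64592542 to 64693054, minus strand) have no overlapping gene.

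Among the granins, Chga was abundant everywhere and highest in cell 3. Chga, encoding chromogranin A, the main acidic protein of the granule core, had 10, 41, 298, 111, 15 and 11 counts, or 1161, 1189, 2432, 1823, 666 and 938 CPM. Its ratio of cell 3 to the other cells pooled was 1.79 (1.48 to 2.16), and cell by cell it was between 1.33 (1.07 to 1.67) against cell 4 and 3.65 (2.18 to 6.61) against cell 5. The order of cells 1, 2 and 6 was not resolved, since their intervals overlap each other and those of cells 4 and 5. The pooled ratio of Chga thus lay below the intervals of Avp and Ptprn.

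Chgb, chromogranin B, had 2, 2, 16, 0, 1 and 0 counts, and its ratio was 3.61 (1.26 to 12.6). Without cell 4 the interval no longer lay above 1. In cell 4 Chgb had no count, with an interval up to 60.6 CPM, against 131 CPM (74.6 to 212) in cell 3. Cell 1 was at 232 CPM from 2 counts. Scg2, secretogranin II, the precursor of secretoneurin, had 9 counts in cell 3 (73.4 CPM, 33.6 to 139) and none in the other cells. At that rate 0.633, 2.53, 4.47, 1.65 and 0.861 counts were due in cells 1, 2, 4, 5 and 6, so that level could have been missed in cells 1, 2, 5 and 6, where fewer than 3 were due. Scg3, which links granins to the granule membrane, had 2, 4, 25, 20, 1 and 6 counts, and its ratio was 0.855 (0.487 to 1.48). Vgf, a further granin-like precursor, had 0 counts in each cell.

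**Figure D3:**
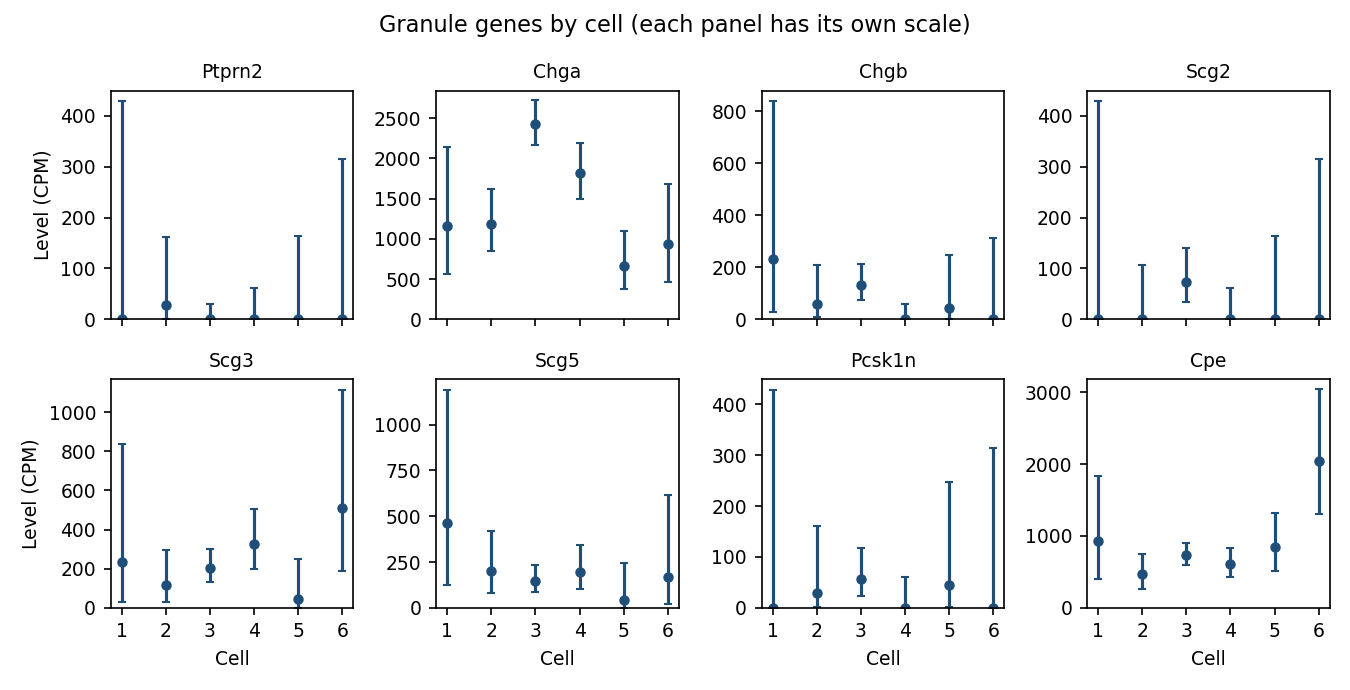
Levels (CPM) of the 8 granule genes other than Avp and Ptprn in cells 1 to 6, with 95% Poisson intervals, each panel on its own scale. Chga is highest in cell 3 at 2432 CPM, Cpe in cell 6 at 2047 CPM, and Scg2 has counts in cell 3 alone.

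Genes that assist or inhibit the convertases had intervals that cover equality between cell 3 and the rest. Scg5, a chaperone of the convertase Pcsk2, had 4, 7, 18, 12, 1 and 2 counts, or 464, 203, 147, 197, 44.4 and 171 CPM. Its level in cell 3 was 0.781 of the pooled others (0.403 to 1.48). Pcsk1n, an inhibitor of the convertase Pcsk1, had 0, 1, 7, 0, 1 and 0 counts, and its ratio of 3.95 (0.752 to 39.0) covers equality. Ptprn2, the paralogue of Ptprn in the granule membrane, had 1 count in all, in cell 2. In cell 3 it had no count, with an interval up to 30.1 CPM, beside 1036 CPM of Ptprn.

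Cpe, carboxypeptidase E, had 8, 16, 90, 37, 19 and 24 counts, or 929, 464, 734, 608, 844 and 2047 CPM. It was highest in cell 6, a cell without a count of Avp or Ptprn, where its interval (1311 to 3046 CPM) lay above those of cells 2, 3 and 4 and overlapped those of cells 1 and 5. The ratio of cell 3 to the others was 0.976 (0.728 to 1.31). Cell 6 also had the highest Scg3, at 512 CPM from 6 counts (188 to 1114). Markers of microvillar cells (2 of 8 found) summed to between 0 and 253 CPM in cells 1 to 5 and to 1962 CPM in cell 6, all of it Coch there, while Trpm5, Ascl3, Cftr and Foxi1 had no count. Their part in the Cpe value was not tested.

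Of the other enzymes that act on prohormones, Pcsk2 and Pam were lower in cell 3 than in the other cells pooled. For Pcsk2 the intervals of cells 2 and 4 lay above that of cell 3, and Pam was counted in cells 4 and 5 alone. Pcsk2, the convertase known to act in neuronal granules, had 0, 5, 1, 14, 2 and 1 counts. The single count in cell 3 (8.16 CPM, 0.207 to 45.5) stood against 145 CPM (47.1 to 338) in cell 2 and 230 CPM (126 to 386) in cell 4. Its ratio of cell 3 to the pooled others was 0.0513 (0.00124 to 0.317). Pcsk1 had 0, 1, 2, 0, 2 and 0 counts. Pam, which amidates peptide ends, had 6 counts in cell 4, 4 in cell 5 and 0 elsewhere. Its interval in cell 3 reached up to 30.1 CPM. Furin, a convertase of the trans-Golgi network, had 6 counts in cell 3 and 4 in cell 5. Cpd, a related carboxypeptidase, had 4 in cell 3. Cpz and Qpct had none. Summed, the 8 enzymes stood at 929, 638, 841, 952, 1421 and 2132 CPM in cells 1 to 6, most of it Cpe.

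Counting genes with at least 10 counts whose 95% interval of the ratio of cell 3 to the pooled others lay above 1 gave 17.9% of 5368 genes, and below 1 it gave 14.5%. Of the 7 members with that many counts, 4 lay above (Avp, Ptprn, Chga and Chgb) and 0 below. Avp and Ptprn are 2 of these 4 by choice, so nothing is read from that count either. Of the 4 processing enzymes, 0 lay above and 2 below (Pcsk2 and Pam). The median ratio of the 5368 genes was 1.06, and that of the 4 enzymes 0.514.

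Genes of granule formation included several with higher levels in cell 3. Of 9 such genes with at least 10 counts, 4 lay above and 1 below, with a median ratio of 1.97. Over all genes with that many counts, 17.9% lay above and 14.5% below. Hid1, Ccdc186 and Pick1 reached that limit only with their counts in cell 3, so nothing is read from this count. Hid1 and Ccdc186, which act in granule maturation at the trans-Golgi network, had ratios of 4.23 (1.35 to 17.5) and 10.2 (1.41 to 445), from 15 against 4 and 9 against 1 counts. Pick1, a membrane-curving protein of granule biogenesis, had 3.76 (1.46 to 11.4) and Sorl1, a sorting receptor, 2.14 (1.33 to 3.51). Rab2a, a small GTPase of the secretory path, lay lower with 0.376 (0.156 to 0.824). Without cell 4 in the pool, Pick1 and Sorl1 were the 2 that still lay above. Vps41 had 0, 1, 9, 5, 3 and 0 counts and Bace1 0, 3, 15, 11, 0 and 8, and both ratios covered equality.

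Genes that prime and fuse granules differed in direction. Of 12 genes with at least 10 counts, 3 lay above in cell 3 (Ptprn, Cadps2 and Syt7) and 1 below (Syt4). Ptprn is among the 3 by choice, so nothing is read from this count. Over all genes with that many counts, 17.9% lay above and 14.5% below. Syt7, a high-affinity calcium sensor of granule fusion, had 464, 348, 1420, 1199, 755 and 0 CPM in cells 1 to 6, and a ratio of 1.85 (1.45 to 2.38). Syt4, a synaptotagmin of dense-core granules, had 464, 29.0, 351, 1182, 1154 and 512 CPM and a ratio of 0.445 (0.305 to 0.639). Syt11, a synaptotagmin of vesicle trafficking, ran from 957 to 2217 CPM. Snap25, a SNARE protein of the plasma membrane, ran from 148 to 755 CPM. The sums of the list were 3367, 3248, 6561, 5747, 6304 and 4776 CPM. Ptprn, a chosen gene, gave 1036 CPM of the sum in cell 3, so no order of the cells is read from these sums. Small clear vesicle genes, for comparison, had 5 of 10 above and 2 below in cell 3, with a median ratio of 1.89.

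**Figure D4:**
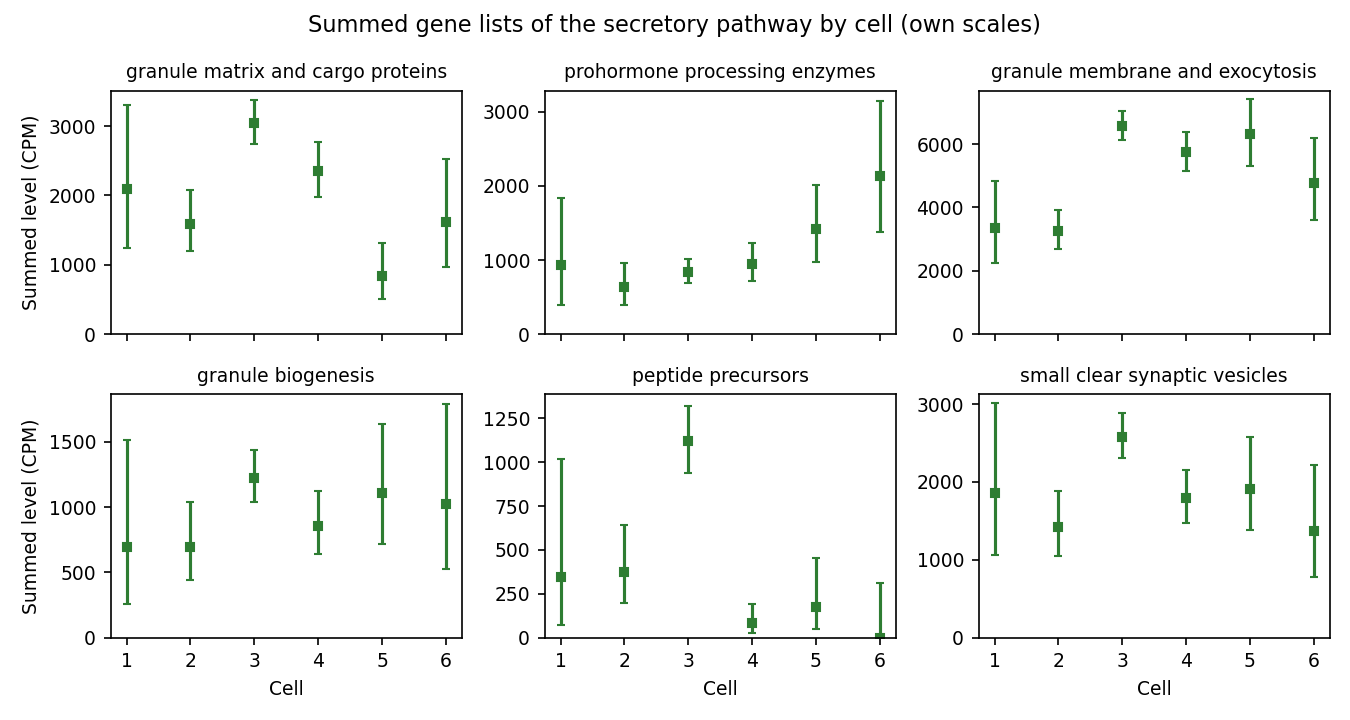
Summed levels (CPM) of 6 gene lists in cells 1 to 6, with 95% Poisson intervals, each panel on its own scale. The peptide precursors peak in cell 3 at 1118 CPM, nearly all of it Avp, while the processing enzymes are highest in cell 6 at 2132 CPM. The granule membrane and exocytosis list includes Ptprn, at 1036 CPM in cell 3.

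Avp had the most counts of the peptide precursors in all, although Cartpt and not Avp was found in cells 1 and 2. Of 40 precursors, 5 had a count in any cell. Besides Avp and Oxt these were Cartpt, a precursor of appetite-regulating peptides, with 2 counts in cell 1 and 7 in cell 2, Sst with 2 counts in all and Nmb with 2. The others, among them Npy, Cck, Tac1 and Penk, had 0 counts. Receptors of vasopressin and oxytocin were at the limit of detection: Avpr1a, Avpr2 and Oxtr had no count and Avpr1b had 1, in cell 2. Lnpep, a membrane aminopeptidase that degrades these peptides, had 1, 1, 11, 2, 1 and 0 counts.

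Set side by side over the 6 cells, Avp and Ptprn had rank correlations with the granule gene sum that depended on cell 3 and, for Avp, on the scaling. The 8 granule genes summed to 3019, 2088, 3778, 2956, 1687 and 3667 CPM in cells 1 to 6, so cell 3 was highest, with an interval of the ratio to cell 6 that covers equality (1.03, 0.753 to 1.44), and cell 6 had no Avp count. Spearman's rho of this sum was 0.21 with Avp and -0.03 with Ptprn (n = 6 cells, which share their depth differences). Without cell 3 it was -0.45 and -0.89 (n = 5), from only 5 counts of Avp and 3 of Ptprn. Of the 822 counts in the sum, 486 were Chga and 194 Cpe, which were highest in cells 3 and 6. With median-of-ratios size factors in place of CPM, rho of the sum with Avp was 0.58 over the 6 cells. Single members differed: Pearson's r on log2(CPM + 10) was 0.87 between Avp and Scg2 and 0.90 between Ptprn and Pcsk1n, both sparse and highest in cell 3, but -0.26 between Avp and Cpe and -0.29 between Ptprn and Cpe. Avp and Ptprn themselves had a Pearson's r of 0.82 on log2(CPM + 10), which was 0.27 without cell 3, so the relation rests on that cell. Cell 3 was the highest cell for 5 of the 10 members, Avp, Ptprn, Chga, Scg2 and Pcsk1n. It was also highest for 10.1% of the 1919 genes whose mean reached 100 CPM. Scg2 and Pcsk1n, with means of 12.2 and 21.8 CPM, lie outside that set, so the 2 shares cannot be compared. Of the 5 members, Avp and Ptprn were chosen with this pattern known, and Scg2 and Pcsk1n rest on 9 and 7 counts in cell 3. By r, the genes most like Avp among 688 whose mean reached 200 CPM were Eno1 (0.89), Igsf8 (0.88), Ptbp3 (0.84), Dtx3 (0.83) and Iqgap1 (0.82). For Ptprn they were Nav1 (0.99), Oaz1 (0.93), Rab14 (0.89), Carns1 (0.86) and Mbnl2 (0.85). Nav1, a microtubule-binding protein of neurites, had 1, 8, 159, 7, 9 and 1 counts, so cell 3 sets this likeness too.

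Exact 95% intervals of the highest and the lowest cell did not overlap for 4 of the 6 members whose mean reached 100 CPM, Avp, Ptprn, Chga and Cpe, against 27.3% of the 1919 genes with that mean. Over all genes with a count the share was 3.67% of 16483. Avp and Ptprn reached that mean through cell 3 alone and were chosen with this pattern known, so nothing is read from the count. Without cell 3 that held for 2 members, Chga and Cpe, and without cell 6 for 3, Avp, Ptprn and Chga. Members with a count in all 6 cells were Chga, Scg3, Scg5 and Cpe. Counts in CEL-Seq2 come mainly from transcript ends and were not divided by length for comparisons within a gene. Per kilobase of exon, the median levels ran from 426 CPM for Chga over 302 for Cpe, 117 for Scg5 and 79.7 for Scg3 to 38.5 for Avp and at most 18.7 for the other 5. In cell 3 the levels per kilobase were 1810 for Avp, 882 for Chga, 281 for Cpe and 244 for Ptprn. That order is set by the exon lengths (577 bases for Avp, 2756 for Chga), and undivided Chga stood at 2432 CPM and Avp at 1045 CPM, so no order between these genes is read.

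Endocrine cell markers (3 of 10 found) had 0 counts in cell 3 and at most 1 in any cell. Gland markers (9 of 9 in the table found) summed to 7082, 34399, 971, 394, 5416 and 85.3 CPM and red blood cell markers (4 of 5 found) to 1742, 4264, 4080, 12610 and 2575 CPM in cells 1 to 5 and 171 CPM in cell 6, so neither was highest in cell 3. Markers of immature neurons (9 of 10 found) were at 929, 2088, 1493, 3580, 2930 and 2815 CPM, with 0 of 9 genes above and 6 below in cell 3, Gap43 and Stmn1 among them. Of mature markers, 5 of 9 lay above and 1 below in cell 3. Over all genes with at least 10 counts, 17.9% lay above and 14.5% below. Adcy3, among those above, had a ratio of 4.18 (2.95 to 6.06), and Ncam1, the 1 below, had 0.62 (0.512 to 0.761). Sustentacular markers (6 of 7 found) were at 253 CPM in cell 3 and up to 1508 CPM elsewhere, and immune and basal markers had at most 4 counts in a cell. The part of these marker levels, and of the greater depth of cell 3, in the Avp and Ptprn counts was not tested.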

How the data were processed

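RNA of 6 single neurons was measured by CEL-Seq2, which primes at the poly(A) tail and adds a molecular identifier. The authors deposited 1 table of whole-number counts with a column for each neuron. Per the labels, alignment used the second read of each pair. Bowtie2 2.3.4, HTSeq, CASAVA and mm10 are named, without roles, per the submitters' processing notes. For annotation, strand and identifier collapsing, the sources used here give nothing. Members, gene lists and alternatives were chosen with earlier results of these data known, and the ratio of cell 3 to the other cells pooled was added after the counts were seen.

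CPM was computed here from the full total of each cell. Intervals are exact 95% Poisson for levels and exact conditional binomial for ratios, in scipy 1.17.1 under Python 3.11.15. A cell without counts was set to 3 counts for a bound of a ratio. No p-value is given, since no animal is named for any cell. Precision follows depth, from 8613 counts in cell 1 to 122546 in cell 3. The calls of uneven genes and of 4-fold differences, but not those by the interval of the ratio, were tested on simulated data. Named were all 10 members, the up to 4 members of each list with the highest median CPM and at least 3 counts in a cell, and the 5 genes most like Avp and Ptprn by Pearson's r on log2(CPM + 10). Other genes in the text were named after their values were seen. Positions, exons and overlaps are from GENCODE M21 on GRCm38, and upstream sequences from RefSeq GRCm38.p6. The planned features of the proteins were not analysed here. Alternatives were other scalings, pseudocounts, interval levels, count limits and leaving out each cell.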

Additional observations from a re-analysis of the deposited data

Results flagged for a closer look

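Values of 1 cell far from the other 5, by Dixon's 95% limit for gap over range, were found for Avp, Ptprn, Ptprn2, Scg2 and Cpe. The share of all genes past that limit was not computed, Avp and Ptprn were chosen with this pattern known, and Ptprn2 rests on a single count. Chance flags about 1 in 20 such groups of values, and genes with few counts are flagged easily. Avp reached 1045 CPM and Ptprn 1036 CPM in cell 3, with the next cell at 65.7 and 88.8 CPM. Scg2 reached 73.4 CPM in cell 3 from 9 counts, and Ptprn2 29.0 CPM in cell 2 from 1 count, with 0 counts in all other cells. Cpe reached 2047 CPM in cell 6, from 24 counts.

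The summed peptide precursors were far from the rest in cell 3 at 1118 CPM, through Avp. The summed genes next to Avp reached 682 CPM in cell 6, through Mrps26 alone at 682 CPM. Among list genes, Bace1, a secretase of the secretory path, reached 682 CPM in cell 6 from 8 counts, and Furin 178 CPM in cell 5 from 4 counts.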

How the results depend on the processing

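Of 32 recomputed values apart from cells left out, 27 stayed within their limits, but some of these could not leave them. A pseudocount cannot change a rank correlation, and the count of uneven members without the filter repeats the main value. For levels the limit was the standard deviation over cells, 418 CPM for Avp beside a median of 22.2 CPM. The tally is therefore no measure of stability. The granule gene sum was 1191 CPM per kilobase of exon in place of 2987 CPM, a change of unit. Members found in all cells were 2 at 3 counts or more, and 2.38 on expectation with every cell thinned to 8613 counts. Spearman's rank correlation of Avp with the granule sum was 0.58 with median-of-ratios size factors. Granule biogenesis genes higher in cell 3 were 2 with at least 20 counts. The causes were not tested, except that fewer genes qualify at higher count limits.

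With each cell left out, median levels ran from 0 to 44.4 CPM for Avp, 0 to 29.0 CPM for Ptprn and 2956 to 3019 CPM for the granule sum. Members in all cells stayed at 4 and uneven members ran from 2 (without cell 3) to 5. This rank correlation ran from -0.45 to 0.45 for Avp and from -0.89 to 0.22 for Ptprn, so neither has a stable sign. The ratio of cell 3 to the others ran from 21.7 to 30.2 for Avp and 26.7 to 44.8 for Ptprn, the lowest without cell 2 for Avp and without cell 4 for Ptprn, with fewer than 3 remaining counts set to 3. Under the other scalings it was 31.8 and 28 for Avp and 52.6 and 46.3 for Ptprn. Members higher in cell 3 were 3 to 4, and granule biogenesis genes 2 to 4, the fewest without cell 4. No paired analysis was possible because there is 1 group. Depth limits cells 1 and 6 most.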
